A study of Mus musculus with 6 samples.

Results

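Nnt and 9 further genes of NADPH supply were followed in mouse liver: G6pdx, Pgd, Taldo1 and Tkt of the pentose phosphate pathway, the isocitrate dehydrogenases Idh1 and Idh2, the malic enzymes Me2 and Me3, and the NAD kinase Nadk. They were taken from the deposited gene table by name, and all 10 were among the 19594 genes that had counts. Nnt, Pgd and Idh1 differed between genotypes by the threshold used here and the other 6 tested members did not. The 10 genes were chosen by their role, with their levels in knockout against wild type in these same libraries already known, so their differences and p-values describe the libraries and support nothing further.

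Cells use NADPH to build fatty acids and sterols, to run cytochrome P450 reactions and to keep glutathione and thioredoxin reduced. In the cytosol it comes mainly from the oxidative pentose phosphate pathway, from NADP-dependent isocitrate dehydrogenase and from malic enzyme. In the mitochondrial matrix it comes from a second isocitrate dehydrogenase, from other malic enzymes and from nicotinamide nucleotide transhydrogenase, the inner-membrane protein encoded by Nnt, which uses the proton gradient to pass hydride from NADH to NADP. Liver carries all of these routes together with heavy use of NADPH for lipid and bile acid metabolism.

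Male mice of 2 genotypes, both of a C57BL6 strain background and aged 2 months, were compared: 3 wild-type animals and 3 SHP -/- animals. SHP, encoded by Nr0b2, is an orphan nuclear receptor that lacks a DNA-binding domain and represses other transcription factors. Liver RNA was selected for its 5′ cap before sequencing, so values describe capped RNA. The labels name neither the C57BL/6 substrain of either group nor the source of the controls.

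Library totals ran from 4494353 to 7225842 counts. Nr0b2 itself stood at 17.7, 12.3 and 13.5 CPM (counts relative to the scaled library total) in the wild-type livers against 6.62, 7.07 and 10.3 CPM in the SHP -/- livers, lower but not absent. The difference was −0.81 ± 0.25 on the log2 scale (SE, limma voom adjusted p = 0.0443). The call was lost when any library but knockout 3 was left out (adjusted p = 0.0532 to 0.121). Which exons of Nr0b2 were read is not shown by counts per gene, so reads outside a deleted stretch cannot be told from reads of an intact transcript. Of 11794 genes tested with limma voom, 1713 were called at a Benjamini-Hochberg adjusted p under 0.05, 894 higher and 819 lower in knockout. Without wild-type library 3 there were 633 calls, and without knockout library 1 there were 1073. Mitochondrially encoded genes took 10.2% ± 0.0651 of counts in wild type and 6.504% ± 0.753 in knockout (SD, n = 3). In bulk liver, fewer cells of a type and less RNA per cell cannot be told apart.

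The promoters of G6pdx and of Me1, the cytosolic NADP-dependent malic enzyme, are shown. Both hold the core of an antioxidant response element, the site bound by the NADPH-enzyme regulator Nrf2. The Me1 transcript was much lower in knockout and that of G6pdx was not called. G6pdx had 33 to 44 counts per library and a 95% interval from −0.61 to 0.67 on the log2 scale, so the pair is no contrast. It was picked with these results known, and Pgd, called higher, also holds a match. Capitals mark the match, and both stretches are RefSeq sequence on GRCm38.p6, read 5′ to 3′ on the gene's own strand.
G6pdx, chrX:74428889-74428977, minus strand: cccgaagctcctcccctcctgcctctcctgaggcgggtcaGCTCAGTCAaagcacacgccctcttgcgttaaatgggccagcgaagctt
Me1, chr9:86695912-86695960, minus strand: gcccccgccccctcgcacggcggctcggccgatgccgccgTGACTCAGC
The G6pdx match lies 57 to 49 bases before the annotated start and reads on the opposite strand to the gene. Me1 has 2 annotated starts. At 1 of them the match begins 6 bases before the start and ends at base 3 of the transcript, and around the other no match was found. A RefSeq window of 250 bases before to 50 after the start was found for 8 of the 10 members, 11 windows in all, and Nnt and Me2 had no entry. The motif, TGACNNNGC on either strand, also occurred once in 1 of the windows of Pgd, as TGACATTGC from base 4 to base 12 of the transcript. It was present in 12.4% of all 32851 windows. The E-box CACGTG occurred in 1 of the windows of Nadk, 40 to 35 bases before the start, and in 7.15% of all windows. The site CAAGGTCA, which binds LRH-1, a partner of SHP, was in 1.56% of all windows and in none of those of the members. A match is a description of these letters and not evidence of binding.

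Nnt (ENSMUSG00000025453, mm9 chr13:120123124-120197804, minus strand) had the largest difference of the group. Its level was 48.3, 58.8 and 57.3 CPM in the wild-type libraries and 137, 135 and 146 CPM in the knockout libraries. The lowest knockout library was more than double the highest wild-type library, and each genotype was tight around its mean. The mean went from 54.8 ± 5.70 to 139 ± 5.92 CPM (SD, n = 3), a ratio of 2.54 and a log2 difference of 1.35 ± 0.12 (SE, limma voom adjusted p = 2.2e-05, 95% interval 1.10 to 1.60). A larger absolute log2 difference was found in 2.48% of the genes tested. The counts behind these levels were 283, 283 and 361 for the controls against 600, 686 and 1087 for the knockouts. Nnt was called in all 6 fits that left out 1 library, with log2 differences from 1.26 to 1.41. The authors' deposited table, which pools the 3 libraries of a group, gives Nnt a log2 ratio of 1.35 with an adjusted p of 1.35e-28. With mitochondrially encoded genes left out of the library sizes the log2 difference of Nnt was again 1.35.

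**Figure D1:**
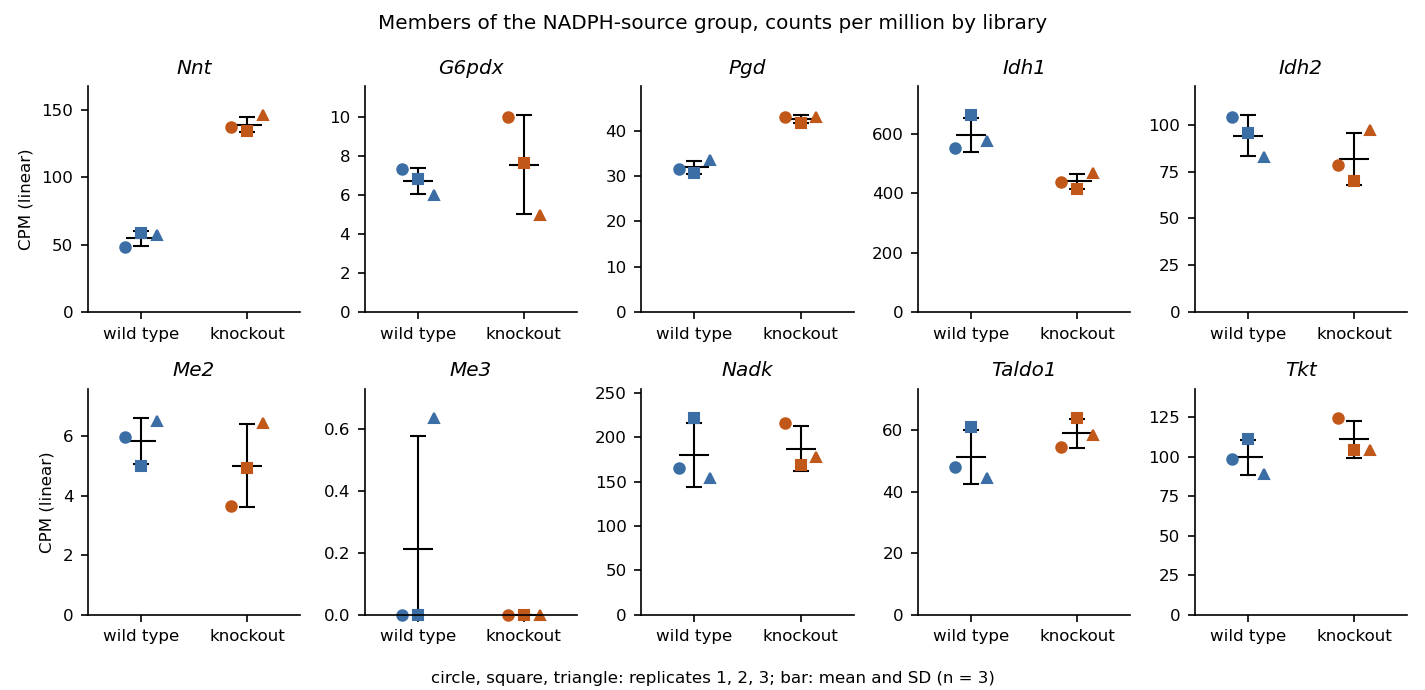
Level of each of the 10 members in CPM (linear axis from 0) in the wild-type (blue) and knockout (orange) libraries, with replicates 1, 2 and 3 as circle, square and triangle and the mean and SD as bars (n = 3). Nnt sits between 48.3 and 58.8 CPM in wild type and between 135 and 146 CPM in knockout, and Pgd and Idh1 are the other members whose genotypes do not overlap.

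Nnt is known for differing between C57BL/6 substrains: C57BL/6J carries a deletion of several exons that C57BL/6N lacks. The mm9 reference was built from C57BL/6J, so reads from exons missing in that substrain could not be placed, and a count per gene does not show which exons were read. Of 10 genes described as differing among C57BL/6 substrains 5 could be tested, and 2 were higher, 1 lower and 2 not called in knockout. Over all tested genes 7.58% were called higher and 6.94% lower. Wdfy1, which encodes a protein of endosomes, was at 12.3, 11.2 and 13.98 CPM in wild type against 39.95, 33.8 and 39.9 CPM in knockout. That is a clear separation, with a log2 difference of 1.59 ± 0.17 (SE, limma voom adjusted p = 0.000135), and Wdfy1 was called in all 6 fits without 1 library. Nlrp12, an inflammation-related NLR gene, was low in both genotypes, at 2.54 to 3.41 CPM in wild type against 5.50 to 8.45 CPM in knockout. On the log2 scale it differed by 1.21 ± 0.34 (SE, limma voom adjusted p = 0.0305), and the call held only without knockout library 2 (otherwise adjusted p = 0.0536 to 0.132). Entpd4, a nucleotidase of the secretory pathway, was lower in knockout, at 37.4, 38.0 and 42.4 CPM against 32.9, 22.6 and 22.3 CPM. Its log2 difference of −0.65 ± 0.16 (SE, limma voom adjusted p = 0.0173) lost its call in the absence of knockout library 2, of knockout library 3 or of wild-type library 3 (adjusted p = 0.0635 to 0.0874). Ide, the insulin-degrading enzyme, had a log2 difference of −0.13 ± 0.13 (SE) and was not called. Since the labels give C57BL6 alone, substrain and SHP genotype cannot be told apart for Nnt or for these genes.

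None of the tested genes close to Nnt was called. Within 2 Mb of its midpoint the table held 7 genes with counts, of which 5 were tested and none passed the threshold with limma voom or limma trend, with 1 of the 5 at an unadjusted p under 0.05. The nearest tested gene was Paip1, a binding partner of the poly(A)-binding protein, which lies beyond the 5′ end of Nnt on the other strand. Paip1 was at 67.1, 73.4 and 80.0 CPM in wild type against 53.4, 59.9 and 57.1 CPM in knockout. Here the knockout libraries were the lower ones, with a log2 difference of −0.37 ± 0.12 (SE, limma voom adjusted p = 0.0528) that missed the threshold. Paip1 did pass in 1 of the 6 fits without 1 library, and with a term for replicate number (limma voom adjusted p = 0.0476). The unnamed gene AC154550.1 overlaps the 5′ end of Nnt on the plus strand and had 0, 1 and 7 counts in the controls against 6, 4 and 10 in the knockouts, too few to be tested. The labels and headers do not say how counting treated strand, so those reads cannot be told from reads of Nnt, which had at least 283 counts in each library. Within 5 Mb, 1 of 12 tested genes was called: Mocs2, of molybdopterin synthesis, at a log2 difference of −0.41 ± 0.11 (SE, limma voom adjusted p = 0.0225). Mocs2 was called in 2 of the 6 fits without 1 library, and its adjusted p reached 0.0934.

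**Figure D2:**
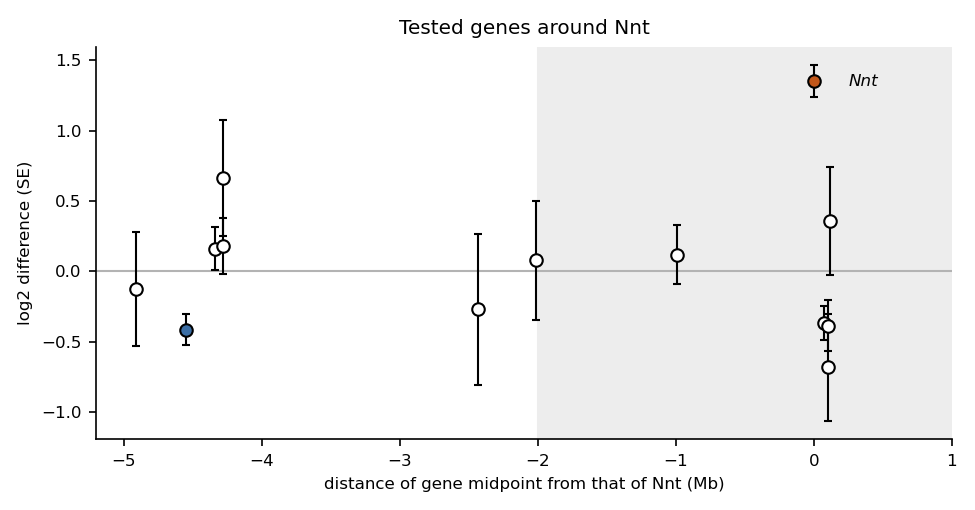
Log2 difference (knockout minus wild type, with SE) of Nnt and of each tested gene with a midpoint within 5 Mb of it, against distance in Mb, with the 2 Mb window shaded up to the right end of the axis. Nnt, in orange, stands at 1.35 while the 5 other genes in the window lie between −0.68 and 0.36, and Mocs2, in blue, is the only other gene called.

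The profiles most like that of Nnt were sought among 9528 other tested genes with a mean of at least 5 CPM, by the root mean square distance between log2 CPM values, each centred on its own mean over the 6 libraries. The closest was Rps6ka1, a ribosomal S6 kinase, at a distance of 0.111 log2 units and with a log2 difference of 1.29. Cdk2ap2 followed at 0.151, then Agpat2, an enzyme of phosphatidic acid synthesis, at 0.162. The unnamed gene RP23-148P12.1 and Sars2, the mitochondrial seryl-tRNA synthetase, were at 0.163 and 0.175. Rps6ka1 lies at mm9 chr4:133403200-133443709, near Nr0b2 itself at chr4:133109291-133112451. Whether that place bears on the level of Rps6ka1 was not tested. This ranking uses the libraries of the genotype comparison itself and says only whose levels ran alongside those of Nnt.

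The oxidative arm of the pentose phosphate pathway makes NADPH in 2 dehydrogenase steps, encoded by G6pdx and Pgd. G6pdx (ENSMUSG00000031400, mm9 chrX:71654822-71674533), the entry step, was scarce: 7.34, 6.86 and 6.04 CPM in wild type against 10.1, 7.66 and 4.97 CPM in knockout, from 33 to 44 counts per library. The knockout libraries enclosed the wild-type range on both sides. Its log2 difference was 0.03 ± 0.30 (SE), with a 95% interval from −0.61 to 0.67 that leaves room for a sizeable change in either direction, and the sign turned with wild-type library 3 left out, and likewise with knockout library 1 or 2 left out. A near-identical retrogene, G6pd2, averaged 0.220 CPM in wild type against 0.373 CPM in knockout, and reads could have been divided between both genes. Pgd (ENSMUSG00000028961, mm9 chr4:148524100-148540880), which oxidises 6-phosphogluconate, was at 31.6, 30.8 and 33.5 CPM in wild type against 42.9, 41.6 and 43.1 CPM in knockout. The 3 libraries of each genotype agreed closely and the genotypes did not overlap. Pgd had a ratio of 1.33 and a log2 difference of 0.41 ± 0.13 (SE, limma voom adjusted p = 0.0457, 95% interval 0.14 to 0.68). That call was marginal: it was lost without any 1 of the 6 libraries (adjusted p = 0.0827 to 0.111), although the log2 difference stayed between 0.39 and 0.45. The authors' deposited table gives Pgd an adjusted p of 0.162.

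Transketolase and transaldolase, encoded by Tkt and Taldo1, shuttle carbon between pentose phosphates and glycolytic intermediates. Tkt (ENSMUSG00000021957, mm9 chr14:31362365-31386797) was at 98.3, 111 and 89.1 CPM in the wild-type livers against 124, 104 and 104 CPM in the SHP -/- livers. Taldo1 (ENSMUSG00000025503, mm9 chr7:148578098-148588867) was at 47.9, 61.1 and 44.5 CPM in wild type against 54.6, 63.8 and 58.3 CPM in knockout. Both sets of libraries overlapped between genotypes, and neither gene was called. The log2 differences were 0.16 ± 0.12 for Tkt (95% interval −0.10 to 0.41) and 0.23 ± 0.14 for Taldo1 (−0.07 to 0.52).

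Idh1 and Idh2 encode the NADP-dependent isocitrate dehydrogenases of the cytosol and of mitochondria. Idh1 (ENSMUSG00000025950, mm9 chr1:65205190-65225755) was at 554, 663 and 577 CPM in the wild-type livers against 439, 415 and 467 CPM in the SHP -/- livers. All 3 knockout libraries lay below all 3 wild-type libraries. The ratio was 0.736 and the log2 difference −0.44 ± 0.10 (SE, limma voom adjusted p = 0.0132, 95% interval −0.66 to −0.22). The call was lost without knockout library 2 (adjusted p = 0.0641) and held in the other 5 fits without 1 library, and the authors' deposited table gives Idh1 an adjusted p of 0.0574. Idh2 (ENSMUSG00000030541, mm9 chr7:87239732-87260278) was at 104, 95.4 and 82.7 CPM in wild type against 78.3, 69.7 and 97.1 CPM in knockout. Knockout library 3 lay inside the wild-type range, and Idh2 was not called at a log2 difference of −0.20 ± 0.14 (SE, 95% interval −0.50 to 0.10).

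Malic enzymes turn malate into pyruvate with release of a reduced cofactor. The mitochondrial Me2 (ENSMUSG00000024556, mm9 chr18:73929696-73975092), which works mainly with NAD, was at 5.97, 4.99 and 6.51 CPM in wild type against 3.65, 4.91 and 6.44 CPM in knockout. The genotypes overlapped, and the log2 difference of −0.19 ± 0.31 (SE, 95% interval −0.85 to 0.47) rests on 16 to 48 counts per library. Me3 (ENSMUSG00000030621, mm9 chr7:96781232-97000472), the mitochondrial NADP-dependent form, had 4 counts in wild-type library 3 and 0 in the other 5 libraries. Too low for the filter, it went untested. For a count of 0, 3 counts is about the upper 95% limit if counts are independent. In those libraries 3 counts would be 0.403 to 0.685 CPM, for counting error only. Counts here may hold both mates of a pair, so the limit may be higher. The cytosolic Me1 (ENSMUSG00000032418, mm9 chr9:86476008-86589802) is no member of the group but completes the family. Me1 was at 34.6, 43.6 and 42.7 CPM in wild type against 16.7, 19.3 and 14.8 CPM in knockout. Every knockout library was below every wild-type library, with a log2 difference of −1.27 ± 0.17 (SE, limma voom adjusted p = 0.000542), called in all 6 fits without 1 library. Per length, the ratio of Me1 to Me2 was 8.60 ± 1.87 in wild type and 4.39 ± 1.43 in knockout (SD, n = 3), or 5.64 ± 1.23 and 2.88 ± 0.938 with transcript lengths.

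Nadk (ENSMUSG00000029063, mm9 chr4:154936487-154965110) encodes the cytosolic kinase that makes NADP from NAD. It was at 165, 221 and 154 CPM in the wild-type livers against 216, 168 and 178 CPM in the SHP -/- livers. The spread within each genotype was wide and the ranges overlapped. Nadk had a log2 difference of 0.07 ± 0.14 (SE, 95% interval −0.24 to 0.37), was not called, and its sign turned without wild-type library 3 or knockout library 1.

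In all, 3 of the 9 tested members were called, against 14.5% of all tested genes. Nnt and Pgd were called higher, where 7.58% of all tested genes were, and Idh1 was called lower, where 6.94% were. Genotypes did not overlap for the same 3 members, as they did not for 35.1% of all tested genes, 17.2% with the knockout libraries higher and 17.9% with them lower. Nothing is read from these shares, because the contrast was known when the genes were chosen. The median log2 difference was 0.07 over the 9 tested members and −0.01 over all tested genes. Me3, which failed the filter, has no part in either.

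**Figure D3:**
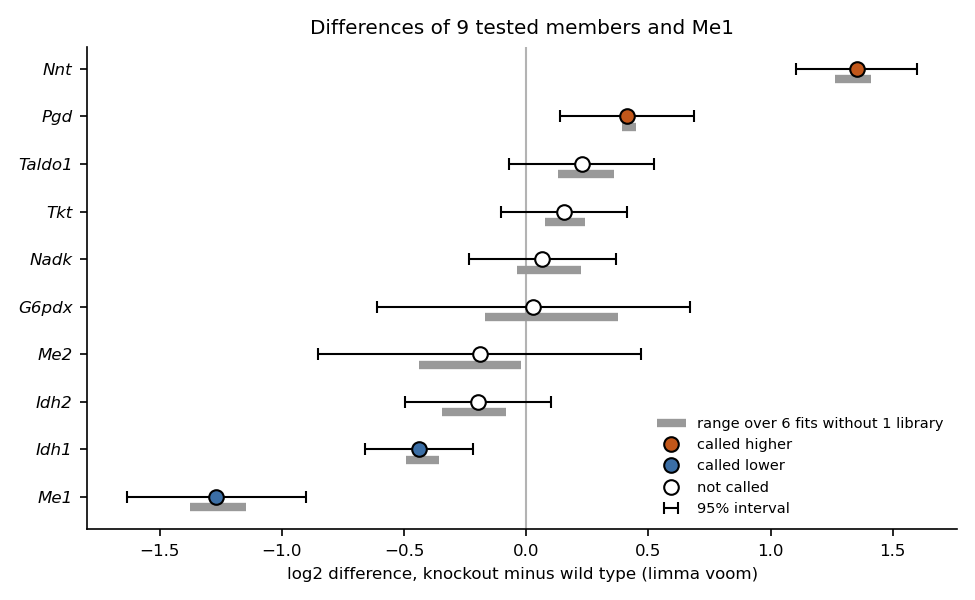
Log2 difference (knockout minus wild type) of the 9 tested members and Me1, with 95% intervals from limma voom, called genes filled and the range over 6 fits without 1 library as grey bars. Nnt at 1.35 and Me1 at −1.27 stand farthest from 0, while the intervals of G6pdx and Me2 span more than 1 log2 unit.

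Levels of different genes were compared per length, as CPM per kilobase of the region the deposited lengths describe. In wild type Idh1 led at 254 ± 24.2, followed by Tkt at 48.2 ± 5.37, Nadk at 47.0 ± 9.38, Idh2 at 36.4 ± 4.18 and Taldo1 at 25.6 ± 4.39 CPM per kilobase (SD, n = 3). Nnt came next at 6.17 ± 0.642, then Pgd at 4.96 ± 0.220, G6pdx at 2.53 ± 0.247 and Me2 at 2.33 ± 0.309 CPM per kilobase, with Me3 last. Ranges of neighbours overlapped for Tkt and Nadk, for Nadk and Idh2 and for G6pdx and Me2, so those orders are not fixed by these libraries. The order in knockout was the same, with Idh1 at 187 ± 11.2 and Nnt at 15.7 ± 0.667 CPM per kilobase, and the ranges of Tkt and Nadk, of Idh2 and Taldo1 and of G6pdx and Me2 overlapped. The step from Taldo1 down to Nnt was 4.15-fold in wild type and 1.88-fold in knockout, and the step from Idh1 down to Tkt was 5.27-fold and 3.49-fold.

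The order below Idh1, and the size of each step, depends on the length used. For Nnt the deposited length is 8881 bases and the longest coding transcript in GENCODE M21 has 3464 bases, a ratio of 2.56, with a ratio of 2.91 for Pgd. For Tkt the deposited length of 2066 bases is shorter than the transcript of 3223 bases. Divided by transcript length, Nnt was at 15.8 ± 1.65 in wild type and 40.2 ± 1.71 CPM per kilobase in knockout (SD, n = 3). On that scale Tkt was at 30.9 CPM per kilobase in wild type, below Nadk, Idh2 and Taldo1 (57.2, 53.9 and 37.6), and at 34.4 in knockout. Tkt thus moved from rank 2 to rank 5 in wild type and to rank 6 in knockout, and Nnt stayed at rank 6 in wild type and came to rank 5 in knockout. The range of Nnt then overlapped that of Pgd in wild type and that of Taldo1 in knockout, so those orders are not fixed by these libraries. The step from Taldo1 down to Nnt became 2.38-fold in wild type and 1.08-fold in knockout, and Idh1 stood 8.41-fold and 5.56-fold above Tkt. Which transcripts of Nnt these livers make is not shown by the table.

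As shares of the summed level per length over the 10 members, which do not depend on library scaling, Nnt took 1.34%, 1.39% and 1.62% in wild type and 3.98%, 4.27% and 4.22% in knockout. Idh1 took 58.0%, 59.1% and 61.4% in wild type and 48.1%, 49.5% and 51.0% in knockout. Neither gene's libraries overlapped between genotypes: the mean share was 2.71 percentage points higher for Nnt and −9.97 points different for Idh1 in knockout. Tkt went from 11.3% ± 0.464 to 14.2% ± 1.28 and Taldo1 from 5.97% to 7.84%, each with no overlap, although neither was called by its own level. The 4 pentose phosphate members together held 19.01% ± 0.680 in wild type and 24.6% ± 1.68 in knockout, and the 4 mitochondrial members 10.6% ± 1.17 and 13.0% ± 1.30 (SD, n = 3). These shares are bound to each other, since a smaller share of Idh1 leaves more to the others. The sum itself was 427 ± 42.6 CPM per kilobase in wild type and 378 ± 18.9 in knockout. Divided by transcript length the share of Nnt was 3.34% ± 0.340 and 9.16% ± 0.268, a difference of 5.81 points, and that of Tkt 6.51% ± 0.262 and 7.83% ± 0.772, again with no overlap.

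**Figure D4:**
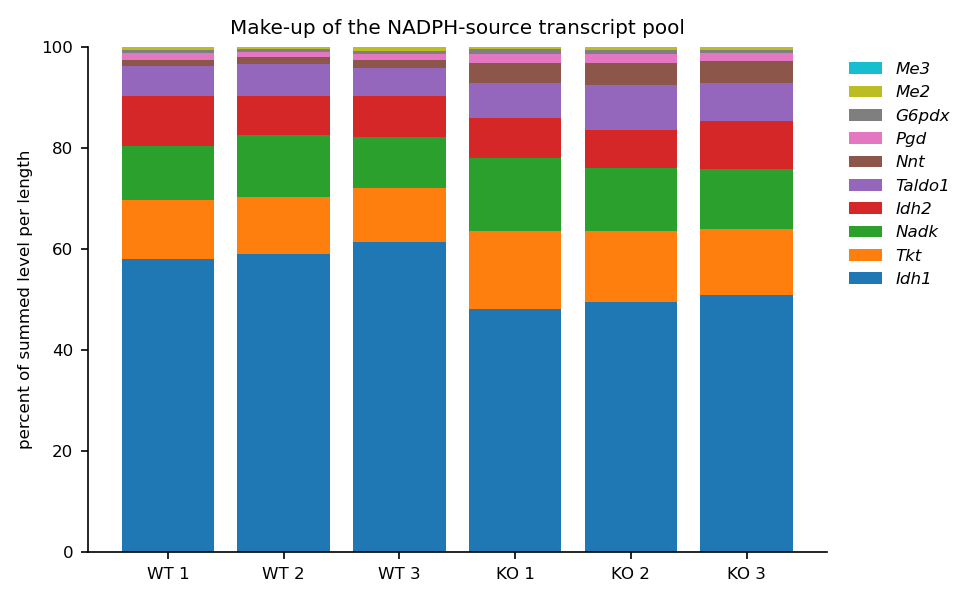
Share of each member in the summed level per length of the 10 members (percent, stacked to 100) for wild-type (WT) and knockout (KO) libraries 1 to 3. Idh1 fills 58.0% to 61.4% of the wild-type bars and 48.1% to 51.0% of the knockout bars, and the Nnt band widens from at most 1.62% to at least 3.98%.

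Within mitochondria, the ratio of Nnt to Idh2 was 0.172 ± 0.0341 in wild type and 0.504 ± 0.0627 in knockout (per length, SD, n = 3), with no overlap. Nnt stood at 2.43% ± 0.176 of Idh1 in wild type and at 8.39% ± 0.194 in knockout. In contrast, the ratio of Idh1 to Idh2 overlapped between genotypes at 7.05 ± 1.04 and 5.99 ± 0.639, as did those of Tkt to Taldo1 (1.89 and 1.84) and of Pgd to G6pdx (1.97 and 2.53). The sizes of these ratios rest on the deposited lengths. By transcript length Nnt to Idh2 was 0.298 ± 0.0589 in wild type and 0.871 ± 0.108 in knockout, and Nnt was 6.10% ± 0.440 and 21.03% ± 0.485 of Idh1, both still with no overlap. Tkt to Taldo1 turned to below 1, at 0.827 and 0.802, and Pgd to G6pdx became 5.72 and 7.33, both still overlapping between genotypes.

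Other genes of NADPH production were taken as lists. To set beside the counts of these and all later lists and markers, 14.5% of all tested genes were called, 7.58% higher and 6.94% lower. The share of all tested genes at an unadjusted p under 0.05 was not taken. Nothing is therefore read from counts at that cutoff, near Nnt or in the lists and markers. Of 5 tested pentose phosphate genes outside the group, 1 was higher, none lower and 4 were not called, with a median log2 difference of −0.03. The one called was H6pd, which encodes the glucose-6-phosphate dehydrogenase of the endoplasmic reticulum, at 489 ± 19.5 CPM in the controls against 671 ± 30.1 in the knockouts (SD, n = 3). Its libraries separated fully, at a log2 difference of 0.46 ± 0.09 (SE, limma voom adjusted p = 0.00675), and it was called in all 6 fits without 1 library. Shpk, a sedoheptulose kinase and the most abundant one not called, had −0.03 ± 0.12. Of 2 tested folate dehydrogenases that yield NADPH, Aldh1l1, the formyltetrahydrofolate dehydrogenase, was higher: 1558, 1278 and 1322 CPM in wild type against 2026, 1974 and 2087 CPM in knockout. The log2 difference of Aldh1l1 came to 0.55 ± 0.10 (SE, limma voom adjusted p = 0.00329), called in all 6 such fits, and Mthfd1 had 0.23 ± 0.10 without a call. The median over both was 0.39.

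All 13 listed genes that handle malate, citrate and isocitrate around these enzymes were tested: 3 were higher, 1 lower and 9 not called, with a median log2 difference of 0.05. Me1 was the lower one. The mitochondrial malate dehydrogenase Mdh2 was higher at 0.49 ± 0.11, the citrate carrier Slc25a1 at 0.43 ± 0.11 and the pyruvate carboxylase Pcx at 0.38 ± 0.11 (log2 difference with SE, limma voom adjusted p = 0.011, 0.0181 and 0.0317). Mdh2 was not called without wild-type library 3 (adjusted p = 0.0657), and Slc25a1 was not with wild-type library 2, or knockout library 1 or 3, left out (0.0525 to 0.0562). Pcx was called only without wild-type library 1 or knockout library 3 (otherwise adjusted p = 0.06 to 0.137). The cytosolic malate dehydrogenase Mdh1, the most abundant one not called, had −0.05 ± 0.10.

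Among 16 enzymes that spend NADPH in biosynthesis and reduction, 6 were higher, 1 lower and 9 not called, with a median log2 difference of 0.40. Over all tested genes 7.58% were called higher and 6.94% lower. The number called in the list was 4 without wild-type library 3, where calls over all tested genes fell from 1713 to 633. It was 5 or 6 without any other library. Sqle, the squalene epoxidase, and Dhcr7, which reduces a sterol double bond, belong to sterol synthesis. Dhcr7 was at 90.9, 46.1 and 67.2 CPM in the wild-type livers against 139, 119 and 129 CPM in the SHP -/- livers, so that the genotypes separated although wild type spread widely. Log2 differences were 1.16 ± 0.13 for Sqle and 0.96 ± 0.18 for Dhcr7 (SE, limma voom adjusted p = 0.000153 and 0.00408), and both were called in all 6 fits without 1 library. The P450 reductase Por and the adrenodoxin reductase Fdxr were also higher, with Fdxr losing its call without any 1 library. Fasn, the fatty acid synthase and the most abundant one not called, had 0.28 ± 0.17.

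All 12 listed genes of the glutathione and thioredoxin systems, which draw on NADPH, were tested: 3 were higher, 1 lower and 8 not called, with a median log2 difference of 0.14. Prdx1, a cytosolic peroxiredoxin, was lower, at 493, 629 and 574 CPM in wild type against 346, 424 and 407 CPM in knockout. The log2 difference of Prdx1 came to −0.52 ± 0.12 (SE, limma voom adjusted p = 0.0101), lost without wild-type library 3 (adjusted p = 0.057). The glutathione peroxidase Gpx1 was higher at 0.42 ± 0.11, the mitochondrial thioredoxin Txn2 at 0.39 ± 0.11 and the lipid peroxidase Gpx4 at 1.04 ± 0.27 (log2 difference with SE, limma voom adjusted p = 0.0196, 0.0318 and 0.0236). Gpx1 lost its call without wild-type library 3 or knockout library 1 or 2, Gpx4 without wild-type library 1 or 3 or knockout library 2, and Txn2 without any library but wild-type library 1. Gpx4 was at only 5.08 to 17.7 CPM, and reads of copies of these genes elsewhere cannot be set apart. No gene of the list was called without wild-type library 3, a fit with 633 calls over all tested genes against 1713 with all 6 libraries. Prdx5, the most abundant one not called, had 0.08 ± 0.10.

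**Figure D5:**
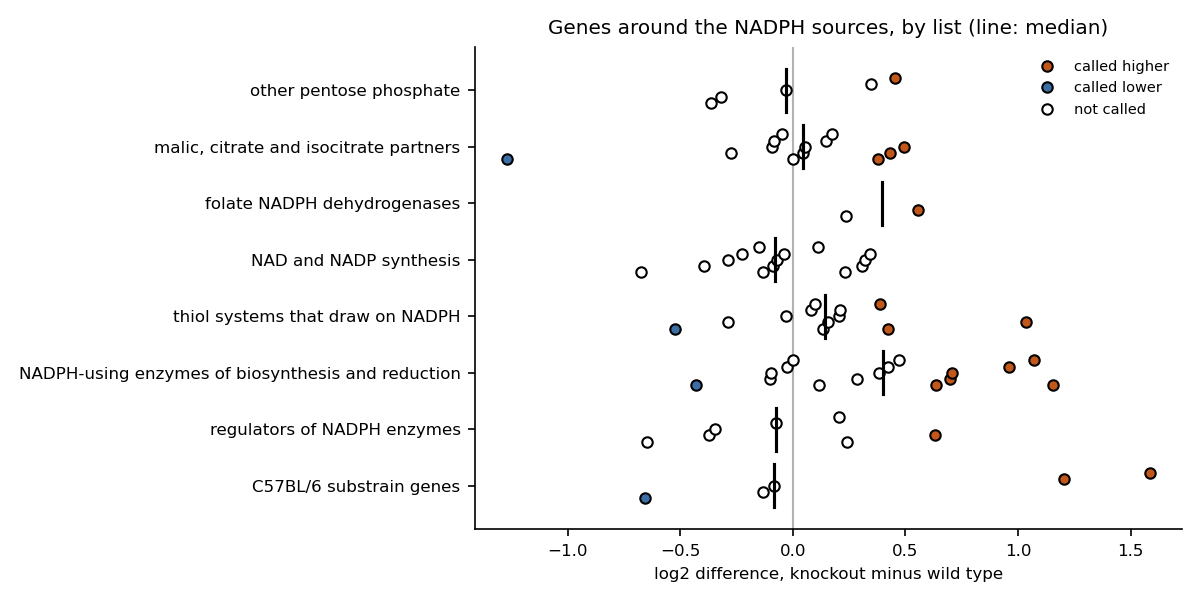
Log2 difference (knockout minus wild type) of each tested gene in 8 lists around NADPH supply and use, 1 point per gene, filled where called and with a line at each list's median. Me1 at −1.27 stands apart at the left, and the NADPH-using enzymes have the highest median of the lists with more than 2 tested genes, 0.40.

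Markers of liver cell types were read beside the members. Hepatocyte markers were abundant, with Alb at 55800 CPM in wild type, and 1 of 7 was called: Tat, lower, a call that was lost without any 1 library. Of 10 Kupffer cell markers, C1qa and Marco were called higher with limma voom, and 3 of the 10 passed with limma trend. The other 8 had log2 differences from −0.81 (Timd4) to 0.38 (C1qb) without a limma voom call, and the list's median was 0.18. Timd4 averaged 10.7 CPM in wild type against 5.87 CPM in knockout. The summed level of the 10 was 380 to 448 CPM in wild type against 379 to 582 CPM in knockout. Of 8 sinusoidal endothelial markers, Lyve1 was called higher, the other 7 had log2 differences from −0.56 to −0.19 without a call, 6 of the 8 had an unadjusted p under 0.05, and the list's median was −0.35. Their sum was 480.0 to 516 CPM in wild type against 302 to 463 CPM in knockout. Of 7 stellate and matrix markers none passed with limma voom and 1 with limma trend, with 1 at an unadjusted p under 0.05, and knockout library 1 had the lowest sum at 175 CPM against 314 to 355 CPM in wild type. Erythroid markers summed to 195 to 222 CPM in wild type against 195 to 333 CPM in knockout, and the neutrophil markers Ly6g and Mpo had empty cells. Without knockout library 1 the log2 differences of Nnt, Pgd and Idh1 were 1.37, 0.41 and −0.44. Of 7 pericentral hepatocyte markers, Rhbg and Oat were called higher. The other 5 were not called, with log2 differences from −0.29 (Lect2) to 0.005 (Glul), and the list's median was −0.07. Of 6 periportal markers, Sds and Gls2 were called higher and Cyp2f2 lower. The other 3 were not called, with log2 differences from −0.02 (Hal) to 0.22 (Ass1), and that list's median was 0.14. Rhbg and Sds were called in all 6 fits without 1 library, while wild-type library 3 alone decided the calls of C1qa and Cyp2f2 and more than 1 library those of Marco, Lyve1, Oat and Gls2. The part of cell or zone make-up in the members' differences was not tested.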

How the data were processed

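Capped liver RNA of 3 wild-type and 3 SHP -/- mice was extracted with TRIzol, selected with a cap-binding EIF4E variant and read from both ends for 36 cycles, 3 barcoded samples to a lane, per the labels' protocols. No label ties samples to lanes, so the effects of lane and of genotype cannot be told apart. Alignment used Novoalign 2.05.33 and the mm9 genome, per the submitters' processing notes. For the counter, its annotation and its use of strand and of reads with several alignments, details are not given in the sources. The authors deposited raw read counts per Ensembl gene and library. They also deposited pooled-group RPKM, a log2 ratio, and 2 score columns, a negative binomial p and its adjusted value, read as −10 times log10. Deposited RPKM equalled counts divided by length and by the observations per the file headers, within 1.94e-05% for knockout and 1.96e-05% for wild type.

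Of 33495 genes, 13901 had empty cells, 4840 of them on lines that end early, and were left out. Because of those lines the unit of the columns could not be recorded as counts, and a negative binomial count model was not run here. Of counts between 1 and 19, 61.8% were even, so counts may hold both mates of a pair and are not independent fragments. Starts were raised by 1. A gene was tested with at least 3 libraries at 1.83 CPM (10 counts at the median library) and 15 counts in total. Library sizes were scaled with an own implementation of trimmed means of M values (factors 0.966 to 1.03). The model was limma 3.58.1 (voom, two-sided, R 4.3.3) on log2 CPM after adding 0.5 to the counts, with a term for genotype alone and Benjamini-Hochberg adjustment over 11794 genes. The fit was also run on simulated counts, drawn independently with the same dispersion for every gene. These libraries may differ from that setting, so nothing here rests on that run. Python 3.11.15, pandas 2.3.3 and matplotlib 3.10.9 served for the rest. Libraries of a group differed by more than counting noise (chi-square per gene 5.44 to 9.87). The labels do not say how the animals were housed or bred, so p-values measure the spread between these samples.

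Members and lists were chosen with earlier results of these data known. Named genes are the members, Nr0b2, Me1, up to 4 called genes per list and its most abundant gene not called, called genes near Nnt, the 5 profiles most like Nnt, tested substrain genes and called markers, some of which are not reported here. Mocs2, Paip1, AC154550.1, G6pd2, Por, Fdxr, Alb, Timd4, Ly6g and Mpo were named after their values were seen. Alternatives covered scaling, filters, model, replicate block, libraries left out, window and length. Transcript length was chosen as an alternative for shares, order and ratios after seeing the data.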

Additional observations from a re-analysis of the deposited data

How the results depend on the processing

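Over 14 alternative fits, the log2 difference of Nnt ranged from 1.26 to 1.41 and was called in each, that of Idh1 from −0.49 to −0.36 with the call lost in 1, and that of Pgd from 0.39 to 0.45 with the call lost in 9. The 9 include total-count scaling (adjusted p = 0.0546) and no filter on low counts (0.088). Leaving out 1 library gave 633 to 1572 called genes (1713 with all 6) and 1 to 2 called members (3 with all 6, and 1 without knockout library 2). The log2 difference of G6pdx was −0.17 to 0.37 over these fits, with the sign turned by omitting knockout library 1 (−0.17), knockout library 2 (−0.038) or wild-type library 3 (−0.060). That of Nadk was −0.039 to 0.23, turned without wild-type library 3 (−0.039) or knockout library 1 (−0.036). The other members kept their direction in every fit they entered. The rise in the share of Nnt, 2.71 points, was 2.65 to 2.79 without 1 library, 5.81 with transcript lengths and 8.09 as a share of counts. The difference for Idh1, −9.97 points, was −10.7 to −9.03 without 1 library and −12.3 as a share of counts. The number of called genes near Nnt, 0 within 1 or 2 Mb, was 1 within 5 Mb. Equal replicate numbers did not pair the samples: same-numbered deviations correlated at −0.0188, −0.0210 and −0.0244. With the replicate block 1779 genes and 2 members were called, Pgd being lost (adjusted p = 0.0576). The block also ended the call of Nr0b2 (0.0553) and called Paip1, within 2 Mb of Nnt (0.0476), and the matrix marker Col1a1 (0.0336), and it changed no other call among the named and listed genes. The planned count models were not run. At 33 to 44 counts per library for G6pdx and 16 to 48 for Me2, changes within their intervals were not detectable at this depth, and counts per gene cannot show which exons of Nnt were read.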

Other observations

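All 14 listed genes of NAD and NADP synthesis were tested and none passed with limma voom or limma trend. An unadjusted limma voom p under 0.05 was found for 6, but without the share of all tested genes nothing is read from that. At most 1 of the 14 was called when 1 library was left out. Their median log2 difference was −0.08, and the most abundant of them, the tryptophan dioxygenase Tdo2, averaged 1938 ± 75.5 CPM in the controls against 1661 ± 129 CPM in the knockouts (SD, n = 3), a log2 difference of −0.22 ± 0.10. Of 7 regulators of NADPH enzymes, 1 was called: Keap1, the adaptor that marks Nrf2 for degradation, at 28.7, 32.4 and 25.1 CPM in the controls against 47.3, 40.1 and 45.1 CPM in the knockouts. The log2 difference of Keap1 was 0.63 ± 0.14 (SE, limma voom adjusted p = 0.0111), and its call was lost without wild-type library 3 (adjusted p = 0.0717). Mlxipl, a glucose-responsive factor of lipogenic genes and the most abundant regulator not called, had 0.21 ± 0.14.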
